A study of Mus musculus with 7 samples.

Results

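Antibodies are built from immunoglobulin heavy and light chains, and their genes were followed here in RNA of CD4+ cells sorted from mouse spleen. The rows whose symbols mark heavy, kappa or lambda variable (V) segments or constant genes of the immunoglobulin loci were taken, 361 of the 19589 genes in the deposited table. They comprised 185 Ighv, 160 Igkv and 3 Iglv segments and 13 constant genes, and 128 of the V segments were annotated as pseudogenes. The choice used symbols alone and no measured value. Of the 361 genes, 186 had a read in any library and 175 stood at 0 in all 7.

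The mice were C57BL/6. The libraries labelled WT1 to WT4 came from 4 wild-type mice, and RT1 to RT3 came from 3 mice that the series describes as Tet2-/-G17VRHOA. Tet2 encodes an enzyme that oxidises 5-methylcytosine in DNA, and RHOA is a small GTPase whose G17V form is found in angioimmunoblastic T cell lymphoma. The sources used here do not give the promoter that drives the altered RHOA, the extent of the Tet2 deletion or the age of the mice, and no treatment other than the sort is named. The values were RPKM, reads scaled to the length of the gene and to the size of the library.

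Each B cell joins 1 V segment to shorter D and J segments in its heavy chain locus, and 1 V segment to a J segment in a kappa or lambda light chain locus, so the V segments in RNA reflect which B cells and plasma cells contributed. The joined segment is first transcribed with the Ighm and Ighd constant exons, for IgM and IgD. Class switching later replaces them with an Ighg, Igha or Ighe constant gene, for IgG, IgA or IgE, and plasma cells hold far more of these transcripts than resting B cells. T cells do not assemble these loci as a rule.

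The libraries fell into 2 sets of depth, and each set held both genotypes. Worked out from the steps of the values, WT1, WT2 and RT1 rested on 18566233 to 21800352 reads and are called deep, while WT3, WT4, RT2 and RT3 rested on 105763 to 121659 reads and are called shallow. A single read in a V segment of 300 bases was worth 0.153 to 0.180 RPKM in the deep libraries and 27.4 to 31.5 RPKM in the shallow ones, and 3 reads, the limit that a count of 0 allows, were worth up to 94.6 RPKM. Summed RPKM over all genes ran from 133044 to 152578 in the deep set and from 326187 to 366023 in the shallow set, so levels of the 2 sets are on different scales and shares within a library are used beside them. The 10 CD4 T cell markers examined all had reads in all 7 libraries, with summed levels of 701 to 3096 RPKM. Cd8a and Cd8b1, which encode a coreceptor of other T cells, reached at most 4.52 RPKM in WT4 and 7.30 RPKM in WT2 (217 reads).

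B cell markers were present at low levels in every library and were far above the rest in WT3 and WT4. The 15 markers summed to 69.7 and 57.2 RPKM in WT1 and WT2, 633 and 706 RPKM in WT3 and WT4, and 82.6, 55.1 and 103 RPKM across RT1 to RT3. All 15 had a read in WT3 and 14 in each of WT1, WT2, WT4 and RT1, against 4 in RT2 and 9 in RT3. Ms4a1, which encodes CD20, was at 0 in RT2. Ebf1 and Cr2 were at 0 in RT2 and RT3, and Pax5 in RT3. The 12 plasma cell markers in the table summed to 72.1, 61.6, 728 and 813 RPKM across WT1 to WT4 and to 157, 133 and 161 RPKM across RT1 to RT3. Of the 12, 9, 9, 10 and 11 had a read in WT1 to WT4 and 11, 6 and 7 in RT1 to RT3. Mzb1, Derl3 and Slamf7 were at 0 in both RT2 and RT3. In bulk RNA, fewer cells of a type and less RNA per cell cannot be told apart, and the part of these markers in the results that follow was not tested.

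A choice of segments with high shares of a locus in RT1 to RT3, with Igkv5-39, the highest kappa segment of WT3 and WT4, is shown first, because the segment results turn on them. Their sequences are those of the GENCODE M21 transcripts on mm10, each given here by its last 120 bases, 5′ to 3′. Capitals run from the codon of the conserved second cysteine to the end of the germline segment, the part that enters the third complementarity-determining region.
Ighv4-1 (chr12:113948282-113948796, minus strand): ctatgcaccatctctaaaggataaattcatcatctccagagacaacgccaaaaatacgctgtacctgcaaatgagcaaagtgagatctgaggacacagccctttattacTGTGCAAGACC
Ighv8-12 (chr12:115647945-115648387, minus strand): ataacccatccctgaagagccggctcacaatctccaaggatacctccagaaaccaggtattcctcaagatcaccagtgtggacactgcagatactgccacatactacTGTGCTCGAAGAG
Ighv5-9-1 (chr12:113736111-113736630, minus strand): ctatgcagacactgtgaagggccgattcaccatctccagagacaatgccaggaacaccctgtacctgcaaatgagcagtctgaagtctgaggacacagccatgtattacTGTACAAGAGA
Ighv1-53 (chr12:115158403-115158835, minus strand): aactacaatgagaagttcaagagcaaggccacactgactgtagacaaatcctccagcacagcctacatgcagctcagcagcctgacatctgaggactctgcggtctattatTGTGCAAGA
Igkv1-88 (chr6:68862265-68863031, minus strand): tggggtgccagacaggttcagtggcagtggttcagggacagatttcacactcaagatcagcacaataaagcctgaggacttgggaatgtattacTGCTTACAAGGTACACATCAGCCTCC
Igkv3-5 (chr6:70663275-70663895, plus strand): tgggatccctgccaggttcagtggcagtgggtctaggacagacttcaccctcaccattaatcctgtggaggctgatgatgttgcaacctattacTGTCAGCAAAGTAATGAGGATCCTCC
Igkv5-39 (chr6:69900424-69900977, minus strand): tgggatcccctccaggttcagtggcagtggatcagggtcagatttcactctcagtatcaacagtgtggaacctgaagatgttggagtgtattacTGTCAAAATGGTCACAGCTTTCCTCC
The cysteine codon was located by the pattern TANTNNTGT or TANTNNTGC in the last 45 bases of the coding strand, which 207 of 216 V genes that are not pseudogenes held (95.8%).

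Several of these segments have close relatives, so reads can be shared between them. The nearest segment to Igkv3-5 was Igkv3-10, at 98.3% identity, and those nearest to Ighv1-53 and to Ighv4-1 were pseudogene segments, at 96.6% and 96.4%. Igkv1-88 stood further from any other, with Igkv1-110 at 85.5%. Igkv17-127 and Igkv17-121, the leading kappa segments of RT2, differed at 9 of 359 aligned bases (97.5% identity). Their last 250 bases are given with the 5 mismatches that lie there in capitals.
Igkv17-127 (chr6:67861153-67861659, plus strand): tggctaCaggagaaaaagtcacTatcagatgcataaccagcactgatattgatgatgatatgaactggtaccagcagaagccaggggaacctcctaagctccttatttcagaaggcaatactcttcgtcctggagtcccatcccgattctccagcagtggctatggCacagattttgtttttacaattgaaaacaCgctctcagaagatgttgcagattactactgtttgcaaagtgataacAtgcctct
Igkv17-121 (chr6:68036812-68037318, plus strand): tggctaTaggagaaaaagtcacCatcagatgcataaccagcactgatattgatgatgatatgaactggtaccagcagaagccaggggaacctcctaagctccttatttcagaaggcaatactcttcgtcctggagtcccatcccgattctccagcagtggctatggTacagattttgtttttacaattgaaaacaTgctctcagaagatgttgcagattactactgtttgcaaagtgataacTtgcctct
A read that covers none of the 9 positions matches both segments, and the sources used here do not say how such reads were assigned.

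The immunoglobulin genes took very different shares of the RNA in the 7 libraries, and the genotypes overlapped. They held 0.628% and 0.358% of summed RPKM in WT1 and WT2 but 11.2% and 11.6% in WT3 and WT4. They held 3.53% in RT1, 1.03% in RT2 and 1.77% in RT3. All RT libraries thus lay above the deep and below the shallow wild-type libraries. By reads in genes, the shares were 0.175%, 0.112%, 2.94% and 3.00% in WT1 to WT4 and 0.9504%, 0.480% and 0.603% in RT1 to RT3, in the same arrangement. The exact 95% binomial interval ran from 2.84% to 3.04% of reads in WT3 and from 0.437% to 0.526% in RT2. Such intervals and limits cover counting error only.

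Set against the B cell markers on RPKM, the immunoglobulin level of the RT libraries was near that of WT3 and WT4. Set against the plasma cell markers it lay between the 2 wild-type pairs. Summed immunoglobulin RPKM was 11.99 and 9.56 times the summed B cell marker RPKM in WT1 and WT2, and 60.5 and 57.5 times in WT3 and WT4. It was 61.8, 68.3 and 56.3 times in RT1 to RT3. RT1, a deep library, thus lay far above the other deep libraries on this ratio, while its B cell markers lay near theirs. Against the summed plasma cell markers, the ratio on RPKM was 11.6, 8.88, 52.5 and 49.9 in WT1 to WT4 and 32.5, 28.4 and 35.9 in RT1 to RT3. Jchain, which links IgM and IgA into polymers and is made by plasma cells, followed the immunoglobulin genes. It stood at 5.67 and 6.39 RPKM in WT1 and WT2, 441 and 516 RPKM in WT3 and WT4, and 58.6, 45.1 and 42.5 RPKM across RT1 to RT3. Not all plasma cell markers followed this order. Edem1 stood at 20.8, 23.1, 22.1 and 49.7 RPKM across WT1 to WT4 and at 15.2, 23.4 and 29.3 RPKM across RT1 to RT3. Prdm1 stood at 4.71, 1.25, 1.51 and 4.42 RPKM and at 6.49, 5.08 and 13.3 RPKM in the same libraries.

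**Figure D1:**
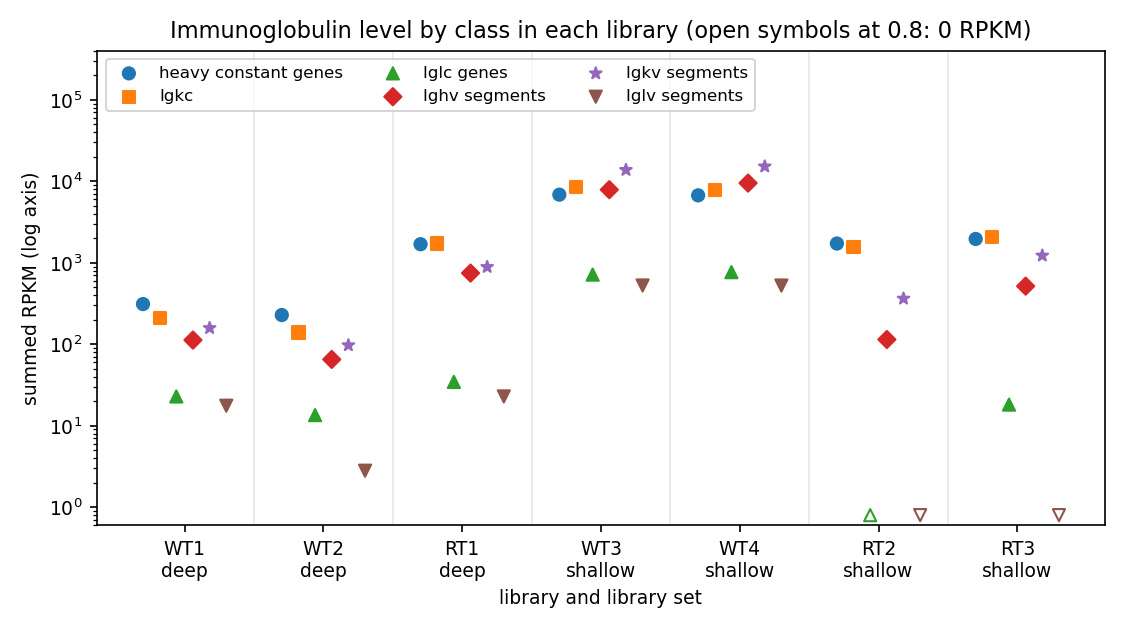
Summed RPKM (log axis) of 6 classes of immunoglobulin genes in each library, the deep libraries on the left and the shallow ones on the right; open symbols mark classes at 0. Every class is highest in WT3 and WT4, and the heavy constant genes and Igkc of RT1 to RT3 lie between the deep and the shallow wild-type libraries.

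Ighm, the constant gene of IgM (chr12:113418558-113422730), was the main heavy chain gene everywhere. It stood at 268, 206, 5817 and 5572 RPKM across WT1 to WT4 and at 1467, 1504 and 1844 RPKM across RT1 to RT3. The RT values were close together and lay between the deep and the shallow wild-type values, with a mean of 1605 ± 208 RPKM (SD, n = 3) against 2966 ± 3152 RPKM (SD, n = 4) in WT. On the log2(RPKM + 1) scale the difference, RT minus WT, was 0.46 ± 1.38 (SE; limma adjusted p = 0.949). Ighm made up 82.9% to 90.4% of heavy constant RPKM in WT and 86.8% to 94.0% in RT. Ighd, the IgD constant gene, made up 1.74% to 3.35% in WT and 1.38% to 4.04% in RT.

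Igkc, the single kappa constant gene (chr6:70726435-70726966), behaved like Ighm. It stood at 213, 139, 8470 and 7867 RPKM across WT1 to WT4 and at 1725, 1564 and 2055 RPKM across RT1 to RT3, again between the 2 pairs of wild-type libraries. The log2(RPKM + 1) difference was 0.58 ± 1.59 (SE; limma adjusted p = 0.945).

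Lambda light chains took a smaller part of the light chain RNA in every RT library than in any WT library. The lambda constant genes Iglc1 to Iglc4, which pair with the few mouse lambda V segments, held 9.72%, 8.85%, 7.79% and 8.89% of light constant RPKM across WT1 to WT4. They held 1.96% in RT1, 0% in RT2 and 0.877% in RT3. The groups did not overlap, and the same order held within the deep and within the shallow libraries. In reads, the shares rested on 228 of 2328, 130 of 1614, 43 of 579 and 47 of 556 light constant reads in WT1 to WT4. In RT1 they rested on 384 of 20388, in RT2 on 0 of 88 and in RT3 on 1 of 134. The exact 95% binomial intervals reached up to 2.08%, 4.11% and 4.09% in RT1 to RT3 and down to 8.62%, 6.77%, 5.43% and 6.28% in WT1 to WT4. All RT intervals thus lay below all WT intervals.

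The level of the lambda genes in RT1 was not low for a deep library. Iglc1 stood at 9.85 and 8.36 RPKM in WT1 and WT2 and at 16.1 RPKM in RT1, which is a smaller difference than that of Igkc between the same libraries. Iglc1 stood at 315 and 417 RPKM in WT3 and WT4 and at 0 in RT2 and RT3. Iglc2 was at 234 and 242 RPKM in WT3 and WT4, 11.97, 2.28 and 12.4 RPKM in WT1, WT2 and RT1, and 0 in RT2 and RT3. Iglc3, whose transcript is 95.3% identical to that of Iglc2, had its only RT2 or RT3 read in RT3, at 18.2 RPKM. Iglc4 was at 0 in all 7 libraries. A count of 0 in these genes of the shallow libraries is compatible with up to 3 reads.

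The 3 lambda V segments were less clear cut. They held 6.11%, 1.70%, 2.37% and 2.08% of V segment RPKM across WT1 to WT4, 1.38% in RT1 and 0% in RT2 and RT3. Iglv1 stood at 13.5, 2.81, 323 and 526 RPKM across WT1 to WT4, at 17.1 RPKM in RT1 and at 0 in RT2 and RT3. Iglv2 had reads in WT1 and WT3 alone (28 and 6 reads), and Iglv3 in WT3 and RT1 alone (3 and 48 reads). Iglv1 and Iglv2 are 96.7% identical, so their reads can be exchanged. With 19 V reads in RT2 and 80 in RT3, a lambda share like that of the wild-type libraries could be missed, since 0 reads leave upper limits of 17.6% and 4.51%. By reads the share of RT1, 1.43% with an interval of 1.24% to 1.64%, overlaps that of WT2, 1.79% with an interval of 1.13% to 2.70%. The Iglv shares of the groups are therefore not resolved from WT2 by counting.

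Of 21 shares of this kind that could be compared over all 7 libraries, 4 did not overlap between the groups: the kappa and the lambda shares, which are complements, the Iglv share of V segments, and the share of Ighg1 among the IgG genes. No test was run on these shares.

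The IgG genes Ighg1, Ighg2b, Ighg2c and Ighg3 together held 5.89%, 4.04%, 12.8% and 14.1% of heavy constant RPKM across WT1 to WT4, and 11.2%, 1.69% and 3.55% in RT1 to RT3. RT1 thus lay above both deep wild-type libraries, and RT2 and RT3 lay below both shallow ones. Among the 4 IgG genes the make-up differed as well. Ighg2c held 66.2% and 65.9% of IgG RPKM in WT3 and WT4 and 40.5% and 46.5% in WT1 and WT2. It held 42.0%, 49.0% and 26.7% in RT1 to RT3.

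Ighg1, the IgG1 constant gene (chr12:113325240-113330523), was among the classes that set RT1 apart from the other deep libraries. It stood at 0.997, 0.347, 13.0 and 47.6 RPKM across WT1 to WT4 and at 37.3, 7.30 and 6.34 RPKM across RT1 to RT3. Behind these levels were 48, 18, 4 and 15 reads in WT1 to WT4, 2108 reads in RT1 and 2 reads in each of RT2 and RT3. Its share of IgG RPKM was 5.43%, 3.75%, 1.47% and 5.005% in WT1 to WT4 and 19.7%, 25.1% and 9.12% in RT1 to RT3. The values of RT2 and RT3 come from 2 of 6 and 2 of 19 IgG reads, with exact 95% binomial intervals of 4.33% to 77.7% and 1.30% to 33.1% of reads that cover the wild-type shares. The higher share is therefore resolved by counting in RT1 alone, where the interval ran from 23.5% to 25.4% of reads.

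Ighe, the IgE constant gene, was nearly absent. It had 38 reads in RT1 (1.10 RPKM), 1 read in WT2 and none in the other 5 libraries. In the shallow libraries 0 reads of Ighe allow a level far above that of RT1, so the difference from RT2 and RT3 was not detectable at this depth.

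Igha, the IgA constant gene, followed a different order. It stood at 14.9, 6.16, 37.8 and 61.6 RPKM across WT1 to WT4 and at 9.01, 120 and 9.24 RPKM across RT1 to RT3, so RT2 was the highest library. RT2 had 34 Igha reads of 354 heavy constant reads, 9.60% with an exact 95% binomial interval of 6.74% to 13.2%. The share was 0.785% and 1.30% of reads in WT3 and WT4 and 0.661% in RT3. It was 6.57% in WT1, with an interval of 6.12% to 7.05%, and 3.76% in WT2. The intervals of RT2 and WT1 overlap, so RT2 was not resolved from WT1 by counting. Igha was the only heavy class with more reads in RT2 than in WT3 or WT4.

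**Figure D2:**
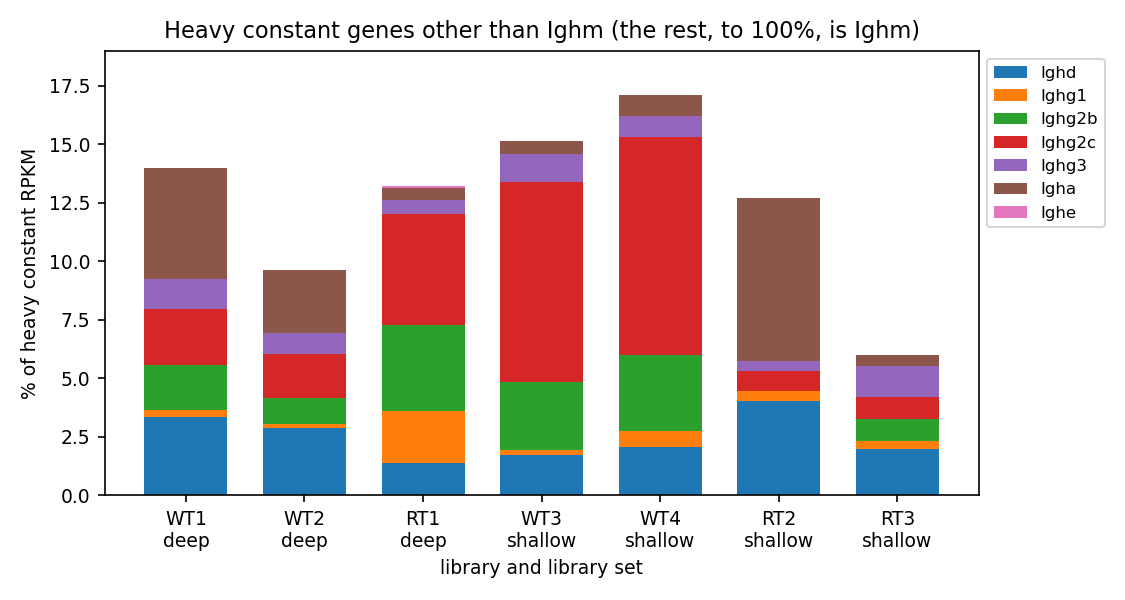
Percent of heavy constant RPKM held by each class other than Ighm, as stacked bars for each library, with Ighm making up the rest to 100%. Ighg2c is the widest band in WT3 and WT4, Igha in RT2, and the Ighg1 band is widest in RT1, at 2.21%.

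V segments were less abundant relative to constant genes in the deep and the RT libraries than in WT3 and WT4. The ratio of summed V segment RPKM to summed constant gene RPKM was 0.527 and 0.434 in WT1 and WT2, 1.38 and 1.64 in WT3 and WT4, and 0.481, 0.145 and 0.432 in RT1 to RT3. V reads numbered 1227 to 13574 in the deep libraries, 968 and 1127 in WT3 and WT4, and no more than 19 and 80 in RT2 and RT3.

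In RT1 a few heavy V segments carried most of the reads. Ighv4-1 held 31.5% of Ighv RPKM there (2123 of 6213 reads), Ighv8-12 held 18.2% and Ighv9-3 held 11.7%, together 61.4%. The highest 3 segments of each wild-type library held 22.8%, 31.3%, 26.4% and 25.1% in WT1 to WT4. Ighv4-1 was also the highest segment of WT2, at 12.9%, while it held 1.62% in WT1 and 0.515% and 0.418% in WT3 and WT4, from 2 reads in each. The highest segments of the other wild-type libraries were Ighv1-82 in WT1 at 9.17%, Ighv1-9 in WT3 at 12.1% and Ighv1-80 in WT4 at 9.37%.

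RT2 and RT3 each had a single dominant heavy segment, and not the same one. All 5 Ighv reads of RT2 came from Ighv5-9-1, and the exact 95% binomial interval of that share runs down to 47.8%. In RT3 Ighv1-53 held 63.4% of Ighv RPKM (14 of 23 reads, interval 38.5% to 80.3% of reads), followed by Ighv1-55 at 15.3% (4 reads). Ighv1-53 held 3.13%, 10.7%, 5.16% and 7.39% in WT1 to WT4 and 2.38% in RT1. Ighv5-9-1 held 0.580% in RT1, 0.258% in WT3 (1 read) and 0 in WT1, WT2, WT4 and RT3. Ighv1-55 was present in all wild-type libraries, at 7.49%, 4.06%, 5.14% and 3.54% in WT1 to WT4, and held 4.51% in RT1 and 0 in RT2.

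The large V family Ighv1, with 93 rows in the table, held 58.7% to 62.3% of Ighv RPKM in all 4 wild-type libraries, although their highest segments differed. It held 26.2% in RT1, 0% in RT2 and 83.3% in RT3. In RT1 the other large families were Ighv4 (31.5%), Ighv8 (18.9%) and Ighv9 (12.2%), which held 12.9% or less in each wild-type library.

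The kappa segments gave a similar account. In RT1 Igkv17-127 held 25.7% of Igkv RPKM, Igkv1-88 held 20.7% and Igkv3-5 held 16.2%, together 62.6%, on 7167 reads. In RT2 Igkv17-127 and Igkv17-121 held 6 and 5 of 14 reads. In RT3 Igkv3-5 held 75.5% (43 of 57 reads, interval 62.2% to 85.9% of reads). The highest segment of WT1 was Igkv14-126 at 10.1%, that of WT2 was Igkv3-4 at 19.2%, and that of both WT3 and WT4 was Igkv5-39, at 28.1% and 27.6%.

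Of the leading kappa segments of RT1, Igkv17-127 and Igkv3-5 were nearly unseen in the deep wild-type libraries, while Igkv1-88 was present there at a lower share. Igkv17-127 had 1788 reads in RT1 (228 RPKM) against 0 in WT1 and 4 in WT2. Among the shallow libraries, 6 reads were in RT2 and 5 in WT3, and none in WT4 or RT3. Igkv3-5 had 1196 reads in RT1 and 43 in RT3, against 2, 0, 7 and 3 in WT1 to WT4 and 0 in RT2. Igkv1-88 had 1451 reads in RT1 and 28, 12, 0 and 3 in WT1 to WT4, with none in RT2 and RT3. Its reads in WT1 and WT2 came to 2.63% and 1.70% of Igkv RPKM. Igkv5-39, the leading kappa segment of WT3 and WT4 at 160 and 177 reads, had 22 reads in WT1, 8 in RT1 and none in WT2, RT2 and RT3.

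**Figure D3:**
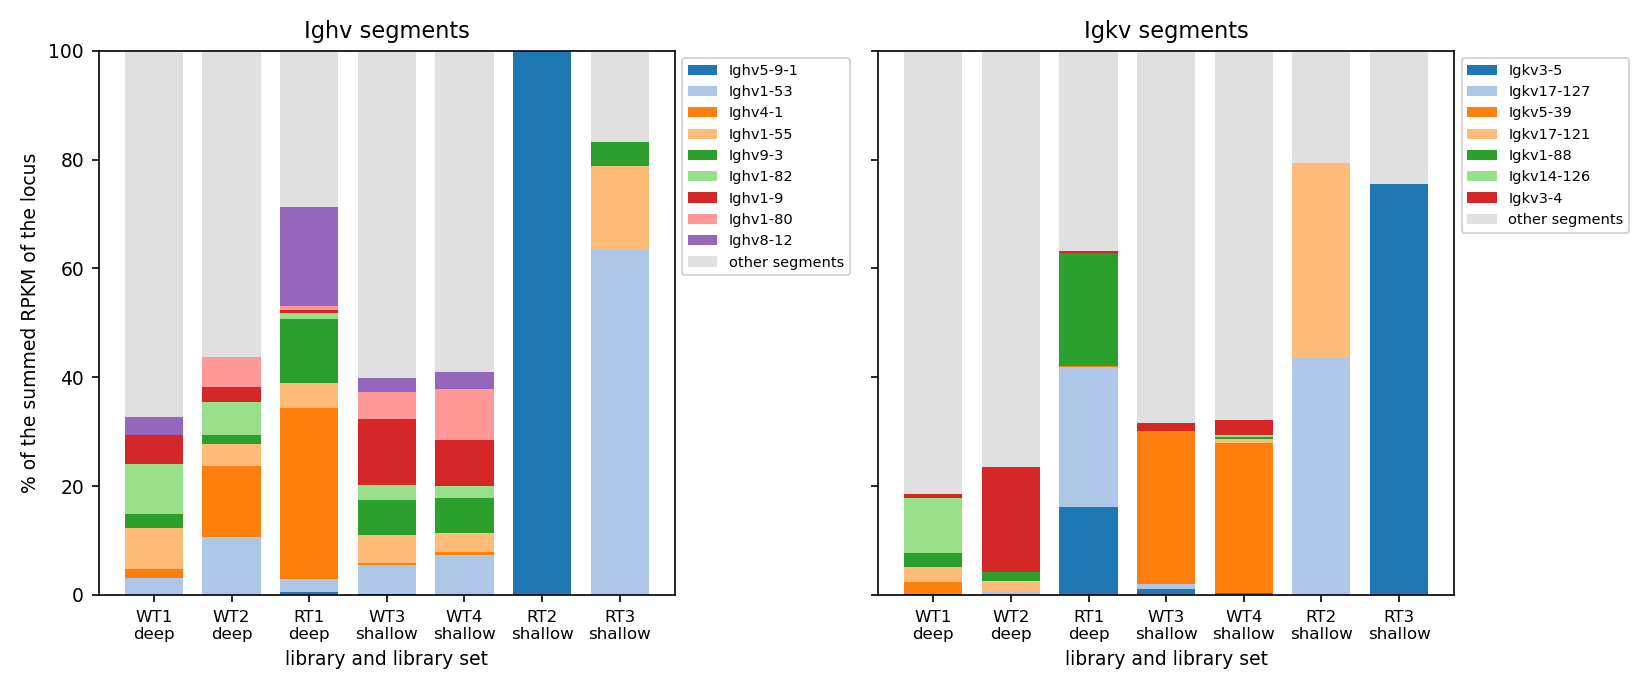
Percent of the summed RPKM of the Ighv (left) and Igkv (right) locus held by the named segments in each library; grey is every other segment. Coloured bands fill most of the bar in RT1, RT2 and RT3, while grey fills most of it in the 4 wild-type libraries. The named segments were chosen in part for high shares in the RT libraries, so this contrast follows in part from the choice.

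The number of segments seen depends on the reads drawn, so it was compared at equal numbers of reads. As deposited, 40, 25, 59 and 54 Ighv segments had a read in WT1 to WT4, and 65, 1 and 7 in RT1 to RT3. Among 5 Ighv reads drawn from a library, the expected number of segments was 4.43 to 4.62 in the wild-type libraries, 3.75 in RT1, 1 in RT2 and 2.74 in RT3. Among 23 reads it was 13.4 to 16.0 in WT, 10.2 in RT1 and 7 in RT3. For Igkv, 14 reads gave 9.56 to 10.98 segments in WT and 7.64, 4 and 3.63 in RT1 to RT3. Among 57 Igkv reads the expected number was 20.1 to 25.7 in WT, 17.6 in RT1 and 7 in RT3. At each of these depths the RT libraries lay below all wild-type libraries, for heavy and for kappa segments. RT2 rests on very few reads, and no test was run on these values. Reads of 1 transcript or of 1 plasma cell are not independent draws of cells, so segment numbers are not numbers of B cells.

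At greater numbers of reads the order changed. The curves of WT1 and WT2 flattened at 40 and 25 Ighv segments and 38 and 27 Igkv segments, while RT1 rose to 65 and 56 with 6213 and 7167 reads. RT1 thus held more segments in all than either deep wild-type library, and its reads were more concentrated on a few of them.

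**Figure D4:**
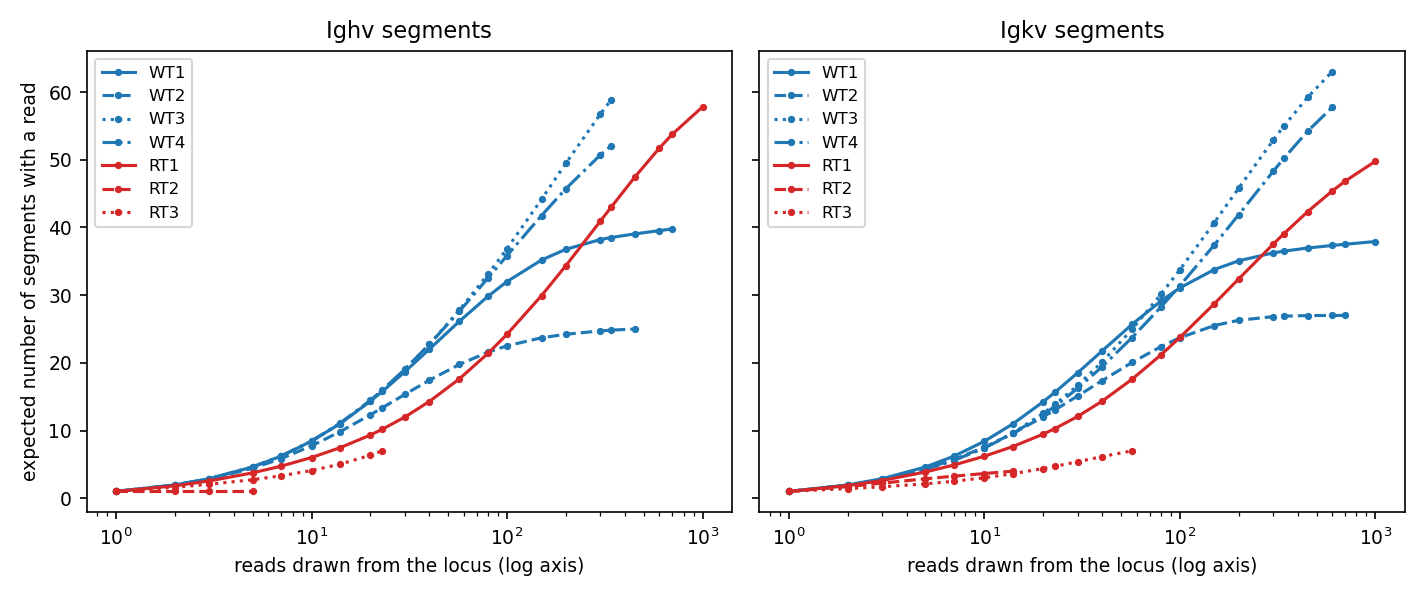
Expected number of segments with a read (vertical axis) against the number of reads drawn from the Ighv (left) and Igkv (right) locus, on a log axis; blue lines are WT libraries and red lines RT libraries. The red lines start below the blue ones, and at 57 Igkv reads RT3 is at 7 and WT1 at 25.7.

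WT3 and WT4 shared their segments far more than any other pair of libraries. The shared part of their Igkv profiles, the sum over segments of the smaller of the 2 shares, was 85.4%, and that of their Ighv profiles was 74.5%. Every other pair reached at most 38.0% for Igkv and 44.7% for Ighv. A chi-square test of their Igkv reads over 24 classes gave 0.927 per degree of freedom (p = 0.561), so these 2 libraries did not differ there beyond sampling noise, and their Ighv reads gave 1.74 (p = 0.0150). For WT1 and WT2 the same statistic was 14.1 for Ighv and 23.9 for Igkv. Over 2342 genes of all kinds with 20 or more reads, WT3 and WT4 gave 1.16 per degree of freedom, above sampling noise, and they were kept as the 2 samples of the labels. In the fits below that treat them as separate mice, the wild-type spread may be too small, so fits with the 2 averaged (RPKM) or summed into 1 library (reads) were added.

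The RT libraries shared little with each other, but some wild-type pairs shared less of Igkv than RT1 and RT2. The shared part was 26.5% of Igkv between RT1 and RT2, 20.97% between RT1 and RT3, and 0% between RT2 and RT3. It was 30.4% for WT1 with WT2, 23.3% for WT2 with WT3 and 22.4% for WT2 with WT4. For Ighv the RT pairs shared 0.580%, 12.7% and 0%, and these wild-type pairs 40.5%, 35.9% and 38.5%. RT2 had 5 Ighv and 14 Igkv reads and RT3 had 23 and 57, so their overlaps are poorly resolved. The 4 Igkv segments of RT2 and the 7 of RT3 were all among the 56 of RT1, and WT3 held 3 and 6 of them.

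Gene by gene, no immunoglobulin gene passed the test between the genotypes on RPKM. Of 9605 genes with at least 1 RPKM in at least 3 libraries, limma on log2(RPKM + 1) called 4 higher in RT (0.0416%) and 1 lower (0.0104%) at an adjusted p under 0.05. Of the 361 immunoglobulin genes 107 entered this fit, and 0 were called in either direction. At an unadjusted p under 0.05, 22 of the 107 were lower in RT, 20.6% against 4.16% of all genes, and 0 were higher, against 4.53%. The filter matters here: 59 of the 107 genes passed it only through WT3 and WT4, so these shares are no account of the 361 genes. In 88 of the 107 genes (82.2%) WT3 and WT4 were both above the other 5 libraries, against 13.8% of all genes tested. With WT3 and WT4 left out, 39 immunoglobulin genes were tested and 0 were called, of which 6 were higher and 2 lower before adjustment, at p under 0.05. Averaging WT3 and WT4 also called 0.

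Every RT library was below every WT library in 3 of the 107 genes (2.8%, against 4.57% of all genes), and above in 0 (against 4.47%). In 5 of the 107, or 4.67%, every RT library was above WT1 and WT2 and below WT3 and WT4, against 1.26% of all genes. These were Ighm, Ighd, Ighg2c, Ighg3 and Igkc, named after their values were seen.

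The reads themselves allowed a fit that takes the library set into account. Limma voom, with genotype and library set in the model, on 5859 genes with at least 10 reads over the shallow libraries, called 525 genes higher (8.96%) and 441 lower (7.53%) in RT. Of 59 immunoglobulin genes in that fit, 2 were called higher and 1 lower, and 52 of the 59 had passed its filter only through WT3 and WT4. With WT3 and WT4 summed into 1 library, 4 were called higher and 0 lower. Ighg1 was higher, with a log2 fold change of 5.43 ± 0.82 (SE; limma adjusted p = 0.00402). Igkv17-127 was higher by 7.41 ± 1.79 (SE; adjusted p = 0.0256). Igkv4-55, a kappa segment at 0 in all RT libraries and in WT1, and at 16, 52 and 53 reads in WT2 to WT4, was lower, with a fitted value of -5.50 ± 1.38 (SE; adjusted p = 0.0294) that is no bound, since RT holds no read.

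With WT3 and WT4 summed, Ighg1 and Igkv17-127 passed again, joined by Ighg2b and Ighv9-3, and Igkv4-55 did not (adjusted p = 0.0713). None of the 3 calls held when each library was left out in turn. Without RT1 the log2 fold change of Ighg1 was -1.71, and that of Igkv17-127 was 0.10 ± 1.76 with an adjusted p of 0.997. Without WT2 the adjusted p of Igkv17-127 was 0.0534. Igkv4-55 was lost without WT3, without WT4 and without each of RT1, RT2 and RT3, at adjusted p-values of 0.0737 to 0.217. Without RT1 the fit called 0 genes of any kind at the adjusted threshold, and before adjustment 171 were higher and 355 lower at p under 0.05.

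In most of the 59 immunoglobulin genes tested on reads, the direction of the genotype difference turned between the 2 library sets. Of these 59, 52 had passed the filter only through WT3 and WT4, which favours a lower value in RT2 and RT3. RT1 against WT1 and WT2, where the lone RT library is taken to have the wild-type spread, called 5 of the 59 immunoglobulin genes higher (8.47%, against 4.25% of all genes) and 0 lower (against 2.22%). RT2 and RT3 against WT3 and WT4 called 39 of the 59 lower (66.1%, against 4.49% of all genes) and 0 higher (against 3.29%). In 52 of the 59 (88.1%) the fold change was above 0 in the deep set and below 0 in the shallow set, against 22.0% of all genes. A test of the difference itself, the interaction of genotype and library set, called 22 of the 59 (37.3%) against 1.18% of all genes. In all 22 the fold change was higher in the deep than in the shallow set. With WT3 and WT4 summed, the interaction called 8 of the 59, all among the 22, against 0.205% of all genes. The shallow set then holds a single wild-type library and its spread comes from RT2 and RT3 alone, so calls within it are not counted.

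These counts are no account of the immunoglobulin genes as a whole, because 52 of the 59 entered only through WT3 and WT4, the libraries where they are high. The genes with 10 or more reads over RT2 and RT3 alone were 3758, with 7 immunoglobulin genes among them: Ighm, Igkc, Ighd, Igha, Ighg3, Ighv1-53 and Igkv3-5. This filter in turn keeps genes that are not low in the RT libraries. Among them, 5 of the 7 were lower in RT2 and RT3 than in WT3 and WT4 (3.46% of all genes so filtered), the exceptions being Igha at -0.60 ± 0.57 and Igkv3-5 at 0.25 ± 0.97 on the log2 scale. The interaction called 2 of the 7 higher in the deep set (0.239% of all genes so filtered), Ighm and Igkc. Ighd, Ighg3, Ighv1-53 and Igkv3-5 differed by 2.80, 3.98, 4.77 and 9.87 between the sets and did not pass, at limma adjusted p-values of 0.294 to 0.392. The RT side of the deep set is RT1 alone.

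For Ighm the deep libraries gave a log2 fold change of 2.61 ± 0.30 and the shallow ones -1.81 ± 0.14 (SE), and the difference of 4.43 ± 0.32 had a limma adjusted p of 0.00201. Igkc gave 3.31 ± 0.33 and -2.22 ± 0.19 in the same order, with a difference of 5.53 and an adjusted p of 0.00242. Among the switched classes, the differences were 8.80 for Ighg2c, 9.18 for Ighg2b and 7.71 for Ighg1, with adjusted p-values of 0.00484, 0.0239 and 0.0250. Ighg3, at 3.99 ± 1.04, did not pass (adjusted p = 0.175). Classes were not tested against each other. For Igha the difference was 0.49 ± 1.65 (adjusted p = 0.953), and its fold changes were -0.06 ± 0.53 and -0.59 ± 0.50. These fits treat WT3 and WT4 as separate mice. With the 2 summed into 1 library, Ighm, Igkc and Ighg2c passed the interaction test again, and Ighg2b and Ighg1 did not. The fold change of Ighm in the shallow set was then -1.81 ± 0.29 (SE). The library set, the level of B cell markers in WT3 and WT4, and the mice cannot be told apart in this design.

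**Figure D5:**
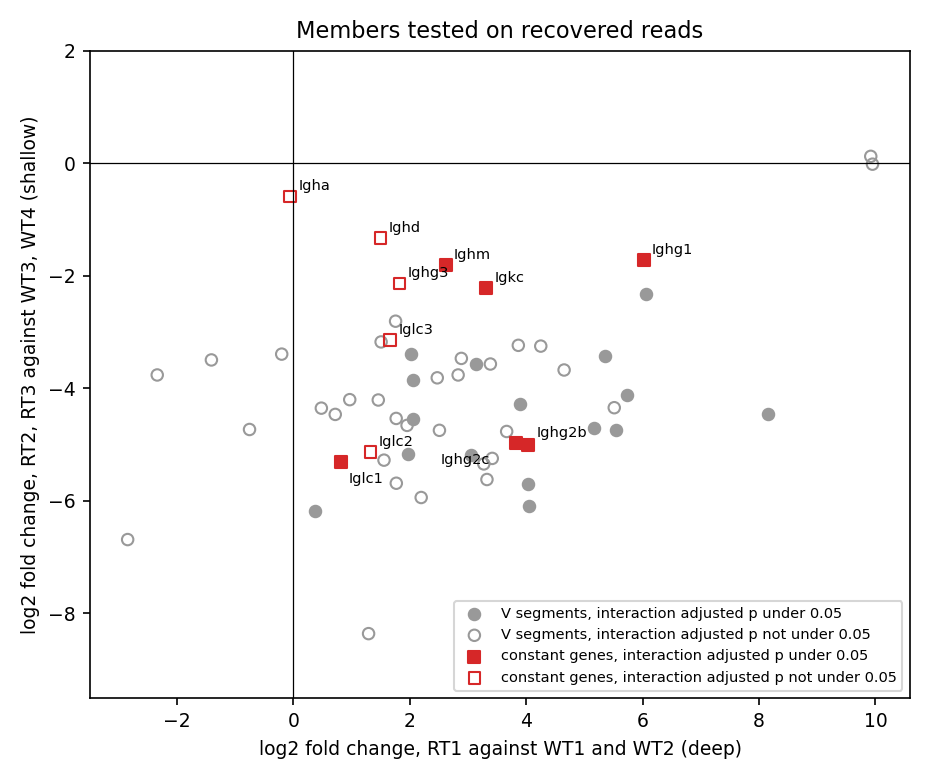
Log2 fold change of RT2 and RT3 against WT3 and WT4 (vertical axis) against that of RT1 against WT1 and WT2 (horizontal axis) for the 59 immunoglobulin genes tested on reads; filled symbols passed the interaction test. Most genes lie in the lower right field, positive in the deep and negative in the shallow libraries, with Ighm at 2.61 and -1.81. Of the 59 genes, 52 passed the read filter only through WT3 and WT4.

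Genes that act around the immunoglobulin loci were followed as lists. In the RPKM fit 0 of 52 genes of the 6 pathway lists were called, and before adjustment 1 was higher and 6 lower at p under 0.05. On reads, 0 of 13 B cell markers tested were higher and 1 was lower, against 8.96% and 7.53% of all genes, with a median log2 fold change of 0.03 against -0.03 for all genes. The gene called was Fcer2a, the low-affinity IgE receptor CD23, with a log2 fold change of -1.92 ± 0.46 (adjusted p = 0.0245). It stood at 2.35, 2.13, 27.2 and 21.3 RPKM across WT1 to WT4 and at 0.757, 0 and 0 RPKM across RT1 to RT3. Every RT value lay below every WT value, but the 27.2 RPKM of WT3 came from 10 reads. A count of 0 in RT2 and RT3 is compatible with up to 3 reads, a level above that of WT1 and WT2.

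Of 15 genes of B cell receptor signalling tested on reads, 3 were higher and 0 lower. Cd81, a tetraspanin that B cells and T cells both express, was higher by 1.94 ± 0.21 (adjusted p = 0.000939), with 9.28, 14.9, 26.3 and 22.8 RPKM across WT1 to WT4 and 46.9, 98.5 and 77.1 RPKM across RT1 to RT3. Vav2, an exchange factor, was higher by 1.14 ± 0.26 (adjusted p = 0.0208). Its level was 10.6 RPKM in RT1 against 3.83 and 4.81 RPKM in WT1 and WT2, but 2.73 and 5.94 RPKM in RT2 and RT3 against 10.9 and 10.7 RPKM in their wild-type counterparts. Dapp1, an adaptor, was higher by 0.79 ± 0.19 (adjusted p = 0.0265), at 7.35, 7.44, 7.19 and 18.7 RPKM across WT1 to WT4 and 13.3, 8.08 and 25.8 RPKM across RT1 to RT3. The receptor subunits Cd79a and Cd79b, which hold surface immunoglobulin, did not pass, at 0.21 ± 0.66 and -0.09 ± 0.37.

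Of 9 genes of immunoglobulin transcription tested, 1 was higher and 0 lower. Pou2af1, the coactivator OBF-1 that acts with octamer factors at immunoglobulin promoters and is also made by follicular helper T cells, was higher by 2.42 ± 0.47 (adjusted p = 0.0107). It stood at 9.002, 4.23, 79.2 and 51.6 RPKM across WT1 to WT4 and at 43.2, 89.0 and 67.7 RPKM across RT1 to RT3. RT2 and WT3 had 24 reads each, so they were not resolved from each other by counting. Which cells gave these reads was not tested. Of 10 genes of antibody secretion and transport, 2 were higher and 0 lower, the chaperone Hspa5 at 0.38 ± 0.10 and the elongation factor Ell2 at 1.23 ± 0.26. Jchain was at 1.22 ± 1.07 and Xbp1, the transcription factor of secretory cells, at 0.54 ± 0.18, and neither passed (adjusted p = 0.481 and 0.0753).

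Of 4 Fc receptor genes tested, Fcer2a was lower and Fcer1g, the signalling chain of activating Fc receptors in myeloid cells, was higher by 1.82 ± 0.37 (adjusted p = 0.0138). Fcer1g stood at 32.2 RPKM in RT1 against 7.40 and 7.71 RPKM in WT1 and WT2, but it was lower within the shallow set, at 21.6 and 18.8 RPKM in RT2 and RT3 against 57.7 and 103 RPKM. Of 5 genes of class switching and somatic mutation 0 were called by limma voom, and before adjustment 1 was higher and 1 lower at p under 0.05. No gene of V(D)J recombination or the surrogate light chain entered either fit, and Rag2, Vpreb1, Vpreb2 and Igll1, made by developing B cells, were at 0 in all 7 libraries. The others on that list had reads. Rag1 had 75 reads in WT1 and 5 in RT1, and Vpreb3 had 1 in WT3. Dntt had 34, 85, 1 and 12 reads in WT1, WT2, WT4 and RT1. Of 3 germinal centre B cell markers tested 1 was higher. This was S1pr2, a receptor that holds B cells and follicular helper T cells in germinal centres, at 2.33 ± 0.38 (adjusted p = 0.00556). Of 4 myeloid markers tested, 3 were higher on reads, Csf1r, Cd68 and Adgre1. All 3 were higher in RT1 and lower in RT2 and RT3 than in the wild-type libraries of the same set. Adgre1 had 35.4 RPKM in RT1 against 8.50 and 5.95 RPKM in WT1 and WT2, and 2.91 and 0 RPKM in RT2 and RT3 against 15.5 and 27.9 RPKM. Csf1r had 133 RPKM in RT1 against 37.8 and 32.9 RPKM, and 13.5 and 18.5 RPKM in RT2 and RT3 against 65.4 and 70.7 RPKM. Cd68 had 41.3 RPKM in RT1 against 9.21 and 11.4 RPKM, and 0 in RT2 and RT3 against 46.8 and 65.4 RPKM. Of the CD4 T cell markers, Zap70, a kinase of T cell receptor signalling, was higher by 1.09 ± 0.18 (adjusted p = 0.00571) and Cd5, a coreceptor, was lower, at -0.97 ± 0.18 (adjusted p = 0.00979).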

How the data were processed

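CD4+ cells were sorted from spleen and libraries were made from 150 ng of RNA with an Illumina TruSeq v2 kit, per the labels' protocols. The authors deposited RPKM values for 19589 gene symbols, 1 column per library, on mm10 per the submitters' processing notes. The sources used here name no aligner, counter, annotation or filter of reads that match several genes.

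Reads were recovered from the deposited RPKM as value times gene length times library total. With GENCODE M21 exon lengths, all 186 immunoglobulin genes above 0 gave whole reads within 0.01 reads. Of all 13859 genes above 0, 10322 did so. Another 2695 took the smallest other length that gave whole reads, 839 took different lengths in the deep and shallow libraries, and 3 were rounded. Totals of reads in genes rest in part on these fitted lengths. Why the lengths differed was not tested. Recovered reads of all genes came to 47.6% to 51.6% of the library total for deep libraries, and to 88.0% to 91.0% for shallow ones. Coordinates, strands and sequences are those of M21 on mm10 (357 of 361 symbols matched). The other 4 are at 0 in every library. Identities come from global alignment of transcripts with Biopython 1.88.

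Log2(RPKM + 1) was taken for genes that reached 1 RPKM in 3 or more of the 7 libraries and modelled in limma 3.58.1 under R 4.3.3 (eBayes with trend, genotype only, Benjamini-Hochberg over all genes tested, two-sided, threshold 0.05). This scale understates the change of low genes. Recovered reads were fitted with limma voom, with genotype and library set, for genes with 10 or more reads over the shallow libraries, and with their interaction. Both were tested on simulated data. Expected numbers of segments are the hypergeometric expectation for reads drawn without replacement. Intervals are exact binomial. Alternatives covered the pseudocount, the filter, quantile normalization, the replicate block, a library set term, each library set alone, each library left out, and WT3 and WT4 left out, averaged or (reads) summed. The summed fits and a filter on RT2 and RT3 alone were chosen after seeing the data.

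The immunoglobulin genes, the gene lists and the rules were chosen with earlier results of these data known. The text names all constant genes and Iglv segments. It also names the 5 Ighv and the 5 Igkv segments with the highest mean share over the 7 libraries. The highest segment of each library, genes that passed either fit, and Jchain are named as well. Ighv8-12 met none of these rules and was added for its high share in RT1, after the values were seen. Of the 3 members of each list with the highest mean RPKM and those that passed, the ones beside a result are named, and the others are given in counts and sums. No pseudogene is named. The series text gives the samples as 4 and 3 mice. Values of some list genes are not reported here.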

Additional observations from a re-analysis of the deposited data

Results flagged for a closer look

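In 6 of 57 groups of wild-type values examined, 1 library stood apart from the other 3 by Dixon's test at the 95% level. Chance alone gives this in about 1 of 20 groups of independent values of like precision. These groups mix deep and shallow libraries, so that rate is no guide here. WT2 was the only wild-type library with Ighe, at 0.0138% of heavy constant RPKM from 1 read. WT1 had the highest Iglv share of V segments, 6.11%. Iglv2 stood at 138 RPKM in WT3, from 6 reads. Igkv17-127 stood at 117 RPKM in WT3, from 5 reads. Igkv17-121 stood at 90.6 RPKM in WT4, from 4 reads. Igkv1-88 stood at 68.1 RPKM in WT4, from 3 reads.

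The genotype difference itself differed between the deep and the shallow libraries (limma interaction, adjusted p from 0.00201 to 0.0413) in 9 of the genes named in the text. The log2 fold change was higher in the deep set by 4.43 for Ighm, 5.53 for Igkc and 6.11 for Iglc1. It was higher by 7.71 for Ighg1, 9.18 for Ighg2b and 8.80 for Ighg2c. Among V segments it was higher by 10.3 for Ighv9-3, 6.53 for Ighv1-9 and 12.5 for Ighv8-12. The fitted values of segments without reads in RT2 and RT3 depend on the prior count and are no bounds. Of the 9 genes, all but Ighm and Igkc had passed the read filter only through WT3 and WT4, where they are high. That filter favours a lower value in RT2 and RT3, and so a higher difference in the deep set. With WT3 and WT4 summed into 1 library, 4 of the 9 passed the interaction test, Ighm, Igkc, Ighg2c and Ighv9-3.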

How the results depend on the processing

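The number of immunoglobulin genes called on RPKM stayed at 0 in both directions under every alternative fitted to RPKM, including the replicate block. It became 2 higher and 1 lower on recovered reads, 4 higher and 0 lower on reads with WT3 and WT4 summed, 5 higher in the deep set alone and 39 lower in the shallow set alone. Over all genes, the 4 higher and 1 lower became 525 and 441 on recovered reads, 20 and 7 after quantile normalization, 21 and 5 with a library set term, 249 and 130 in the deep set and 193 and 263 in the shallow set. They became 0 and 0 with a pseudocount of 0.1 or 10, with no filter or a filter of 10 RPKM, with WT3 and WT4 left out or averaged, and under the replicate block. With single libraries left out they ran from 0 to 10 higher and from 0 to 5 lower. On recovered reads the same ranges were 0 to 695 and 0 to 615 for all genes, and 0 to 7 and 0 to 5 for immunoglobulin genes, and RT1 gave the 0 for all genes (RT3 left 302 and 276). Immunoglobulin genes called higher were 6 without WT2 or WT3. The replicate numbers did not pair the samples (correlations of deviations 0.432, -0.179 and 0.184 for numbers 1 to 3), so the block is a setting only.

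Fold changes turned sign for Ighd (-1.33), Ighm (-1.81) and Igkc (-2.22) in the shallow set, for Ighg2b (4.04) and Ighg2c (3.83) in the deep set, and for Ighg1 on reads without RT1 (-1.71). Over 28 named genes and 712 alternatives, 562 kept direction and side of the threshold, 41 newly passed, 8 no longer passed and 95 turned sign without a call. The cause was not tested. The mean immunoglobulin share over RT libraries was 2.11%, and 0.678% by reads and 3.53% in the deep set. Leaving out single libraries gave 1.40% to 2.65% in RT and 4.06% to 7.81% in WT. The kappa share of RT was 98.0% in the deep set against a mean of 99.1% in all. Segments with a read averaged 91.3 in WT, against 14.5 expected at equal reads. Depth limits all V segment values of RT2 and RT3.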

Other observations

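The short joining (J) segments, which were not among the genes followed above, had reads mainly in WT3 and WT4. The 14 J segment rows of the 3 loci held 63 reads in WT3 and 83 reads in WT4, against 1 in RT2 and 9 in RT3. The deep libraries WT1, WT2 and RT1 held 0 reads, although RT1 had 13574 V reads. Heavy J segments accounted for 38, 41 and 4 of the reads of WT3, WT4 and RT3, and kappa J segments for 24, 42 and 5. Among 46 genes shorter than 100 bases with a read in any library, 0 were above 0 in WT1, 1 in WT2 and 12 in RT1, against 20, 15, 12 and 14 in WT3, WT4, RT2 and RT3.

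Other cell types also differed between libraries. The alpha and beta globin transcripts Hba-a2 and Hbb-bs stood at 958 and 876 RPKM in WT3 and at 962 and 803 RPKM in WT4. In the other 5 libraries Hba-a2 ranged from 27.5 to 160 RPKM and Hbb-bs from 26.7 to 259 RPKM. Siglech, a marker of plasmacytoid dendritic cells, had levels of 1.66, 1.37, 24.9 and 12.2 RPKM across WT1 to WT4 and was listed at 0 in all 3 RT libraries. It was lower on reads (limma voom adjusted p = 0.00816), with RT2 and RT3 limited to 3 reads each by their depth. Flt3, a growth factor receptor of dendritic cells and progenitors, stood at 0.654, 0.905, 9.53 and 6.66 RPKM across WT1 to WT4 and at 0.119, 0 and 0 RPKM across RT1 to RT3, and was also lower on reads (limma voom log2 fold change -2.93 ± 0.51, adjusted p = 0.00712).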
